A study of Mus musculus with 12 samples.

Results

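Left ventricles of ATF6-MER transgenic (TG) mice given tamoxifen were compared with left ventricles of TG mice given vehicle, 3 arrays against 3 of the 12 in the series, across all genes and with most room for genes outside the ER, fatty acid oxidation and Rcan1 groups. The arrays were chosen by their titles, and the members are the 34945 probe sets, of 45101 on the array, that the platform annotation pairs with 1 gene symbol. These stood for 18193 genes, of which 11165 were bright enough to be tested. Every mouse was a male C57BL/6 of about 30 weeks, except that TG tamoxifen 1 is labelled 40 weeks, and each heart was hybridised on its own Affymetrix mouse expression array, on which short oligonucleotide probe sets read the transcripts. Both TG groups carry the fusion, so the comparison is of the drug in hearts that hold it. The other 6 arrays are of non-transgenic (NTG) littermates, 3 given tamoxifen and 3 given vehicle. Dose, route and length of treatment are not stated in the labels. Nor do the labels name the promoter of the transgene; the ATF6-MER line known from heart work is driven by the alpha-myosin heavy chain promoter, which is active in cardiomyocytes.

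ATF6 is a membrane protein of the endoplasmic reticulum (ER). When unfolded proteins build up there, ATF6 moves to the Golgi, is cut, and its released end enters the nucleus and switches on genes of protein folding. In ATF6-MER this active end is joined to a mutated part of the mouse estrogen receptor that keeps the fusion inactive until tamoxifen binds it. The best-known DNA element that ATF6 uses is the ER stress response element (ERSE), a CCAAT box, to which NF-Y binds, followed at a fixed distance by a CCACG block to which ATF6 binds. Cardiomyocytes live mainly on fatty acids, store calcium in a specialised ER and hold their contractile filaments in sarcomeres, so the main gene groups outside the ER were taken from those functions and from RNA, protein and cell growth machinery.

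Levels are given as log2(intensity + 16) after quantile normalization, so 1 unit is a doubling and differences of dim genes are understated; changes are differences of group means (3 arrays each) ± the standard error of the fit. The labels conflict for TG vehicle 3, whose title says vehicle and whose treatment field says tamoxifen. It was kept as vehicle, and its Hspa5 level of 15.94 lay beside those of TG vehicle 1 and 2 (16.39 and 15.76) and below those of TG tamoxifen (18.47, 18.47 and 18.37). The array labelled NTG tamoxifen 1 read 17.72 for Esr1, which reports the receptor part of the fusion, within the range of the TG arrays (16.66 to 18.25) and above every other NTG array (at most 10.88). This reading conflicts with the NTG label, and results that rest on it are given with and without it; in the comparison of the TG groups it enters the normalization, the filter, the choice of probe set and the estimate of the spread. All 12 cardiomyocyte markers were above the filter, and so were 5 of the 7 atrial markers, with Bmp10 and Gja5 below it. The atrial list median per array, relative to the TG vehicle mean, lay between -0.69 and 0.70 on the treated TG arrays. On the TG vehicle arrays its limits were -0.64 and 0.44, so these ranges overlapped. The spread was widest among the NTG tamoxifen arrays, between -1.66 and 2.58. The part of atrial tissue in the results was not tested. Arrays of the same TG group correlated at r = 0.924 to 0.964 over all probe sets above the filter, and arrays of different TG groups at 0.865 to 0.893. The ratio of 3' to 5' beta-actin signal, a sign of RNA degradation, was 1.79, 1.75 and 1.88 in TG tamoxifen and 1.68, 1.32 and 1.50 in TG vehicle, without overlap (exact two-sided permutation p = 0.1, the smallest that 3 against 3 allows).

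Of the 11165 genes, 2774 passed the threshold (24.8%; limma, Benjamini-Hochberg adjusted p under 0.05 over all genes), 1166 higher (10.4%) and 1608 lower (14.4%) in TG tamoxifen. With each array centred on its median in place of quantile normalization the split turned, to 1542 higher and 1166 lower of 2708, so the balance of rises and falls depended on the scaling. For 4933 genes (44.2%) the TG tamoxifen and TG vehicle arrays had separate ranges. Most genes called lay outside the groups known for ATF6: lists of ER folding, fatty acid oxidation and Rcan genes held 57 of the higher genes (4.89%) and 39 of the lower ones (2.43%). These lists are small, with 138, 49 and 11 of the 11165 genes tested, so they could hold only a small part of the calls. Within them 40.6% of the ER genes were higher and 65.3% of the fatty acid oxidation genes lower. More than 4-fold changes were seen for 111 higher and 92 lower genes, and more than 16-fold changes for 8 and 3. Without the array labelled NTG tamoxifen 1, 1434 genes were higher and 1829 lower, holding 1155 and 1591 of those above. In a fit on the 6 TG arrays alone the numbers were 1153 and 1337, with 932 and 1226 shared. The counts depended on single TG arrays: leaving out TG tamoxifen 1 gave 1466 genes, TG tamoxifen 2 gave 1748, TG tamoxifen 3 gave 1843 and TG vehicle 2 gave 1702. Without both arrays with conflicting labels (TG vehicle 3 by treatment and TG tamoxifen 1 by age) 742 genes were called, 248 higher and 494 lower, of which 241 and 468 were among those above. With TG vehicle 3 moved to TG tamoxifen, 0 genes passed in limma, while 2280 had an unadjusted p under 0.05. With the beta-actin ratio as a term, 5 genes passed (2511 by unadjusted p under 0.05); the part of RNA quality in the other changes was not tested apart from this fit. In these bulk ventricles, fewer cells of a type and less RNA per cell cannot be told apart.

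The DNA sequence that ATF6 is known for was found before a small part of the rises, and the matching promoters are shown to let the element be read in place. Promoters, as windows of 300 bases running from 250 bases before to 50 after the annotated start, were matched from RefSeq (build GRCm38.p6) for 9025 of the genes tested, 948 of them higher and 1312 lower. A full ERSE was defined as CCAAT, 9 free bases and CCACG, on either strand. A gene can have several windows and was counted where any of them held the element. It was found for 15 genes tested (0.166%); by windows this was 15 of 11630 (0.129%), against 39 of all 32851 mouse promoter windows (0.119%). Among genes that rose the share was 10 of 948 (1.05%), and among those that rose more than 4-fold 7 of 94 (7.45%), against 2 of 1312 genes that fell (0.152%). All 10 of the rises belonged to the ER list (10 of 47 with a window, 21.3%), and none of the 901 rises outside it held a full ERSE. The shorter ERSE-II, ATTGG, 1 free base and CCACG, was found in 8 genes tested, of which Dnajb11, Herpud1 and Lrif1 rose. The 10 elements that follow are of the genes with an ERSE that rose, read in the direction of the gene, as CCAAT first or as its reverse complement; Hsp90b1 holds a pair of them and is shown with its element nearer the start.
Hspa5: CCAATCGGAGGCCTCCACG
Hsp90b1: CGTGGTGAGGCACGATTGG
Dnajc3: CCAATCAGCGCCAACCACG
Creld2: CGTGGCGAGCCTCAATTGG
Calr: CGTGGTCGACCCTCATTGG
Pdia6: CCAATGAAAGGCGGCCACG
Derl3: CGTGGGACTTCCCCATTGG
Syvn1: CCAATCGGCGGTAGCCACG
Ero1b: CGTGGTCCCGCCTCATTGG
Canx: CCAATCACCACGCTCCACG

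These elements lay between positions -201 and -26 counted from the start, with changes from 0.79 ± 0.20 for Ero1b to 3.98 ± 0.93 for Derl3. The other element of Hsp90b1 began at -212. The 250 bases before the start of 4 genes are given next with full matches in capitals. Hspa5, the chaperone BiP (chr2:34771840-34772089, plus strand), rose by 2.41 ± 0.52 (adjusted p = 0.00836), and Hsp90b1, the chaperone GRP94 (chr10:86705445-86705694, minus strand), by 2.29 ± 0.63 (adjusted p = 0.0236). Creld2, an ER folding factor (chr15:88819396-88819645, plus strand), rose by 3.79 ± 0.71 (adjusted p = 0.00449). Lrif1, which encodes a nuclear protein that binds ligand-bound receptors and heterochromatin (chr3:106721432-106721681, plus strand), was the only gene outside the ER list that rose with either full element, here an ERSE-II.
Hspa5: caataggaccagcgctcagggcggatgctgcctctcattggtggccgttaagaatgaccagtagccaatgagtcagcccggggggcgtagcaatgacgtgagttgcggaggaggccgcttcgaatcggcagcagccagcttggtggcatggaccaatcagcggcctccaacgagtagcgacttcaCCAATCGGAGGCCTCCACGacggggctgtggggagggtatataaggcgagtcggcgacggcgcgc
Hsp90b1: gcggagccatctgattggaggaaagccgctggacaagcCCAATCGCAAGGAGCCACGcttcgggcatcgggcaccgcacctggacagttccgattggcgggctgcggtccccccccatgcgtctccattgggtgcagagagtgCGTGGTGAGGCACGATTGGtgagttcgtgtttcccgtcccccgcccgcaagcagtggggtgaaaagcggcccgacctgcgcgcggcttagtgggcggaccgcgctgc
Creld2: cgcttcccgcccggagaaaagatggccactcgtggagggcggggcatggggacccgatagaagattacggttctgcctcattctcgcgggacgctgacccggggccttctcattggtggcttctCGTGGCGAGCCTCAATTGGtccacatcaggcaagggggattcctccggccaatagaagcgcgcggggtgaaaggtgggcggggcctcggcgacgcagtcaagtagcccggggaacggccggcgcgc
Lrif1: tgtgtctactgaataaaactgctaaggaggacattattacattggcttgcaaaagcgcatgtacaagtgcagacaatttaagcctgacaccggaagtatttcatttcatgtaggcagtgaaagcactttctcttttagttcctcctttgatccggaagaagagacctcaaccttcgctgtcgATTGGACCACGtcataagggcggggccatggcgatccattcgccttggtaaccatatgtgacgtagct

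Lrif1 read 13.18, 12.87 and 13.08 in TG tamoxifen and 11.53, 11.36 and 11.61 in TG vehicle, a rise of 1.55 ± 0.28 (2.92-fold, adjusted p = 0.00404). Its NTG change was -0.71, and the TG change was larger by 2.26 ± 0.39 (adjusted p = 0.0109; 0.000736 without NTG tamoxifen 1). A full ERSE was also present before genes that did not rise. Acacb, an acetyl-CoA carboxylase that restrains fat oxidation, and Adcy3, an adenylyl cyclase, fell by 1.98 ± 0.33 and 1.04 ± 0.17 (adjusted p = 0.00317 and 0.00274). Adcy3 depended on its probe set: without NTG tamoxifen 1, NTG tamoxifen 2, NTG vehicle 1 or NTG vehicle 2 another one had the highest mean, and its change of -0.22 was not called. The bare CCAAT box, which is part of the ERSE and counts wherever it occurs, was found for 50.1% of the genes that rose, 41.8% of those that fell and 42.5% of all tested with a window; it was found for 66.0% of rises above 4-fold and for 48.6% of rises outside the ER list. By windows the CCAAT shares were 44.1% for the rises, 35.8% for the falls and 37.0% for all genes tested, against 37.4% of all promoter windows. The palindromic E box CACGTG, a site of MYC, USF and clock factors, was found for 14.8%, 11.3% and 11.8% of higher, lower and all tested genes, and the CRE TGACGTCA for 3.80%, 3.20% and 3.43%. By windows the E box shares were 12.4%, 9.38% and 9.77%, against 7.15% of all promoter windows, and the CRE shares 3.16%, 2.66% and 2.87%, against 1.79%. A match is a description of letters and not a measured binding site.

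**Figure D1:**
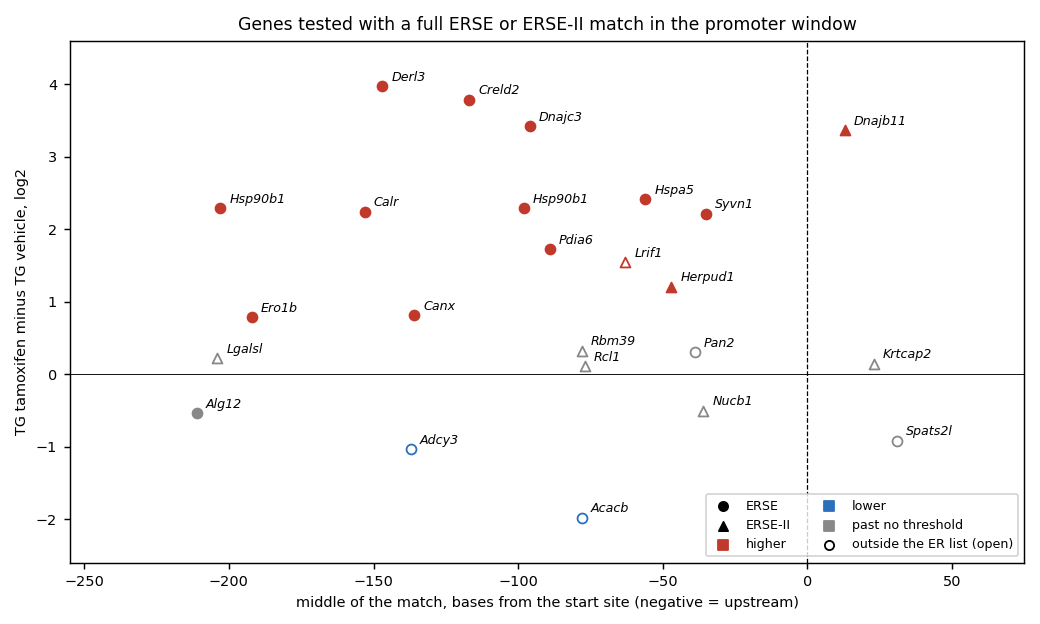
Position of each full ERSE (circles) or ERSE-II (triangles) in the promoter windows of tested genes, as bases from the start site, against the log2 change of the gene between TG tamoxifen and TG vehicle (3 arrays each). Filled symbols are members of the ER list: the genes at 1.5 or above are ER genes except Lrif1, while Adcy3 and Acacb lie below 0.

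The 40 largest rises outside the known lists ran from 2.45 (Sptlc2) to 5.41 (Far1), with adjusted p between 0.00113 and 0.0340. All 40 also passed in the fit on the 6 TG arrays, which are the arrays that chose them. The largest was of Far1, which makes the fatty alcohols of ether lipids. Far1 read 17.90, 17.89 and 18.07 in TG tamoxifen and 12.61, 11.68 and 13.33 in TG vehicle. The 3 treated arrays lay within 0.2 of each other while the vehicle arrays spread over more than 1 unit, and the difference was 5.41 ± 0.83 (42.6-fold, adjusted p = 0.00233). Polr3k, a small subunit of RNA polymerase III, read 17.15, 16.94 and 17.06 in TG tamoxifen and 12.43, 11.39 and 12.69 in TG vehicle, again a group of high and nearly equal treated arrays (4.88 ± 1.03, adjusted p = 0.00791). Both genes were also high on the array labelled NTG tamoxifen 1, at 16.67 for Far1, while the other NTG tamoxifen arrays had 12.94 and 12.59. Other leading rises, such as Ube2c (14.71) and Pgp (17.27), were high on that array too, while some, such as Arid4a (10.48), were not. The probe set of Polr3k is marked as possibly matching several transcripts, as were those of 11 of these 40 rises, among them Psat1, Mllt3, Gadd45g, Eif1a, Socs3 and Cks1b.

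Several of the leading rises are described next one by one, and no enrichment of their functions was tested. Mllt3, a reader of acylated histones in the elongation machinery, read 14.05, 13.49 and 13.65 in TG tamoxifen and 9.98, 10.37 and 10.18 in TG vehicle (3.55 ± 0.50, adjusted p = 0.00174). Arid4a, which brings histone deacetylase complexes to retinoblastoma protein, rose by 3.19 ± 0.33 (adjusted p = 0.00113), and its vehicle arrays read 10.41, 9.39 and 9.77, all below its treated arrays. Ing2, of the same kind of complex, rose by 2.66 ± 0.65, from vehicle arrays that spread widely (10.04, 7.29 and 8.20). Tspyl2, a nucleosome assembly protein, rose by 3.02 ± 0.71 and the histone chaperone Asf1b by 2.51 ± 0.65. Rbm15b, part of the machinery that methylates mRNA, rose by 2.84 ± 0.59, and Ankrd10, a little-studied ankyrin repeat protein, by 2.75 ± 0.37 (adjusted p = 0.00172).

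Mthfd2, of mitochondrial folate metabolism, read 13.38, 13.08 and 13.17 in TG tamoxifen and 8.76, 9.01 and 8.83 in TG vehicle (4.34 on the log2 scale). Its size rested on the probe set: where another probe set of the gene had the highest mean the change was 2.70 without NTG tamoxifen 1, 2.59 without TG tamoxifen 1, 2.81 without TG tamoxifen 3, 2.70 without NTG tamoxifen 2 and 2.68 without NTG vehicle 1, called in each of these fits. Aldh18a1, which starts proline synthesis, rose by 2.57 ± 0.63 and Uck2, which salvages pyrimidines, by 2.61 ± 0.71. Eif1a, a translation initiation factor, read 14.63, 14.60 and 14.40 in TG tamoxifen and 11.55, 11.16 and 11.77 in TG vehicle (8.27-fold, adjusted p = 0.00186). Pgp, a phosphatase that clears metabolic side products, rose by 2.85 ± 0.60. The cell cycle genes Ube2c (5.31 ± 1.22), Tk1 (4.19 ± 1.12) and Cks1b (2.85 ± 0.41) all rose, and so did Cdkn1a, the cell cycle inhibitor p21 (2.33 ± 0.63, adjusted p = 0.021), and Gadd45g, a growth arrest gene (3.21 ± 0.59, adjusted p = 0.00434). The vehicle arrays of Ube2c read 6.50, 10.06 and 10.40, so its fold rests in part on TG vehicle 1.

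Sptlc2, of the enzyme that begins sphingolipid synthesis, read 13.76, 13.53 and 13.70 in TG tamoxifen and 11.02, 11.08 and 11.52 in TG vehicle (2.45 ± 0.39, adjusted p = 0.00266), and Ch25h, which makes the signalling lipid 25-hydroxycholesterol, rose by 2.94 ± 0.74 (1.92 without TG vehicle 1). Suco, an ER protein of bone, rose by 2.84 ± 0.38, Arf2, a GTPase of Golgi traffic, by 2.74 ± 0.47, and Dmxl1, of the vacuolar proton pump system, by 2.59 ± 0.55. Stbd1, which binds glycogen and sits at the ER, rose by 2.75 ± 0.48. Eda2r, a receptor of ectodysplasin, read 11.90, 12.02 and 11.83 in TG tamoxifen and 8.55, 8.91 and 9.91 in TG vehicle (2.79 ± 0.51, adjusted p = 0.00421), and Slc20a1, a phosphate importer, rose by 2.74 ± 0.49. Appl1, an adaptor of the adiponectin receptors, rose by 2.52 ± 0.40, Jpt2 by 2.56 ± 0.73 and Ears2, a mitochondrial glutamyl-tRNA synthetase, by 2.81 ± 0.80, with treated arrays at 13.14, 13.11 and 13.19 and vehicle arrays at 10.38, 10.37 and 10.26.

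**Figure D2:**
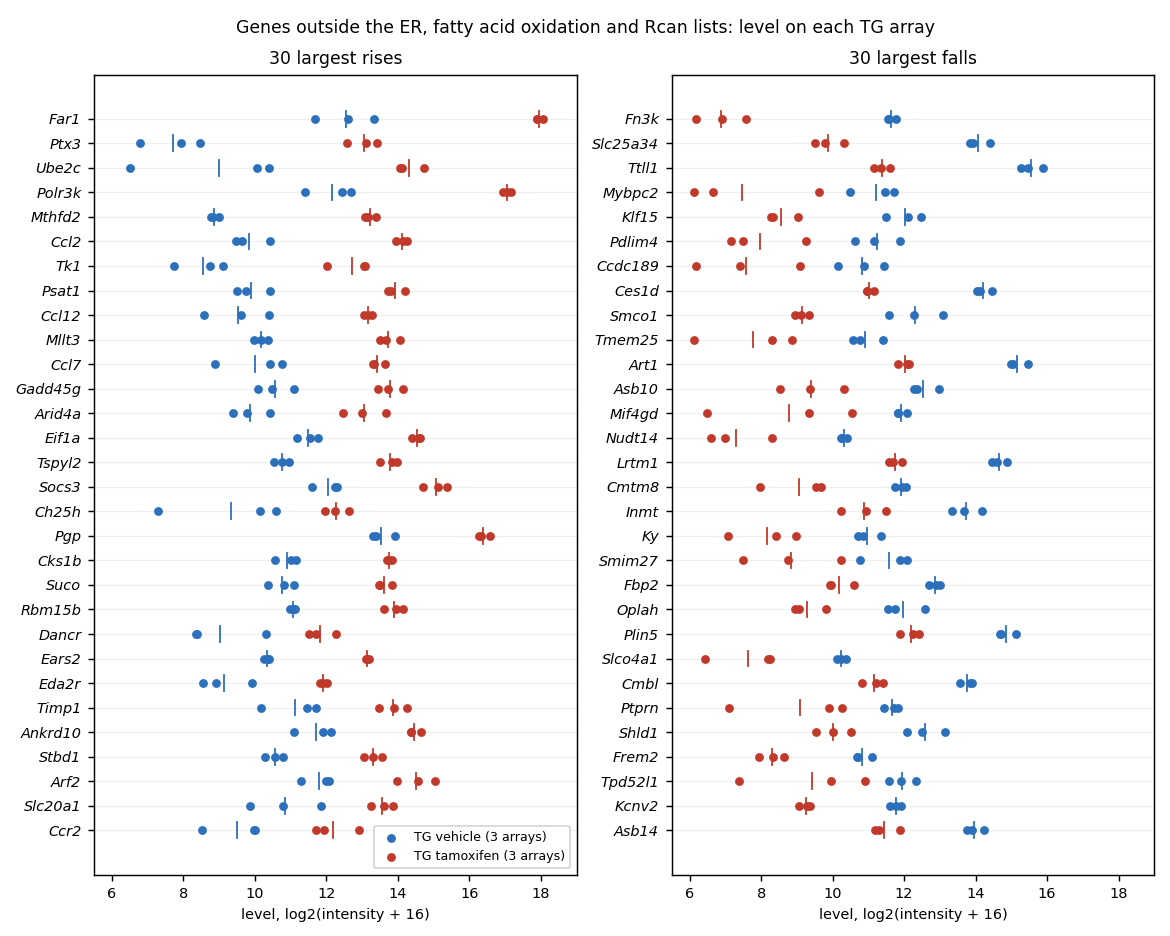
Level on each TG array, as log2(intensity + 16), of the 30 largest rises and 30 largest falls outside the ER, fatty acid oxidation and Rcan lists; points are arrays and vertical ticks group means. No gene has overlapping groups, as the naming rule required; Far1 and Ears2 show treated arrays that nearly coincide, and Mybpc2 and Mif4gd treated arrays that spread over 3 units or more (the change of Mif4gd was -3.13, and -1.98 without TG tamoxifen 2).

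The 40 largest falls ran from -4.74 (Fn3k) to -2.39 (Akr1b10), with adjusted p between 0.000384 and 0.0261. Of these, 33 of the 34 that could be tested on the 6 TG arrays alone passed there, again on the arrays that chose them. The filter bears on both ends: 6 of the 40 rises (Ptx3, Ccl2, Tk1, Dancr, Eda2r and Asf1b) would lie below it without the TG tamoxifen arrays, and 21 of the 40 falls had a TG tamoxifen mean below it. Fn3k, which removes sugars from glycated proteins, read 6.91, 6.17 and 7.57 in TG tamoxifen and 11.55, 11.56 and 11.77 in TG vehicle, a fall by 4.74 ± 0.60 (adjusted p = 0.00172). Slc25a34, a mitochondrial carrier of muscle, read 9.77, 10.33 and 9.50 in TG tamoxifen and 13.93, 14.40 and 13.84 in TG vehicle, with a wide gap between the groups. Ttll1, a tubulin glutamylase whose probe set may match several transcripts, read 11.16, 11.61 and 11.36 in TG tamoxifen and 15.27, 15.90 and 15.45 in TG vehicle. Lrtm1, a leucine-rich repeat protein of heart and muscle, fell by 2.91 ± 0.36 (7.54-fold lower, adjusted p = 0.00159), Smco1, a muscle membrane protein, by 3.18 ± 0.52, and Ky, a protease of muscle maintenance, by 2.82 ± 0.45. Art1 and Art4, which attach ADP-ribose to surface proteins, fell by 3.14 ± 0.45 and 2.41 ± 0.43. Fblim1 and Pdlim4, adaptors of filamin and actin, fell by 2.44 ± 0.51 and 3.27 ± 0.77, and Hhatl, a palmitoyltransferase-like protein of muscle, by 2.39 ± 0.49.

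Adssl1, the muscle enzyme of the purine nucleotide cycle, read 11.90, 12.03 and 11.57 in TG tamoxifen and 14.08, 14.51 and 14.20 in TG vehicle (5.38-fold lower, adjusted p = 0.00245). Fbp2, the muscle fructose bisphosphatase, fell by 2.70 ± 0.60, Oplah, which recycles oxoproline of glutathione, by 2.69 ± 0.44, and Fah, which ends tyrosine breakdown, by 2.47 ± 0.52. Gstk1, the mitochondrial and peroxisomal glutathione transferase, had narrow groups, 12.87, 12.93 and 12.84 in TG tamoxifen and 15.18, 15.29 and 15.42 in TG vehicle (-2.42 ± 0.31, adjusted p = 0.00172). Ces1d, a carboxylesterase, fell by 3.18 ± 0.50, Cmbl, a hydrolase, by 2.62 ± 0.32, Selenbp1, a methanethiol oxidase, by 2.41 ± 0.40, Inmt, an amine methyltransferase, by 2.84 ± 0.41, and the aldo-keto reductase Akr1b10 by 2.39 ± 0.25. Plin5, the coat protein that ties lipid droplets to mitochondria, fell by 2.66 ± 0.45 (adjusted p = 0.00325). The smallest adjusted p of the comparison among these genes belonged to Tbc1d10c, an inhibitor of calcineurin and Ras known from lymphocytes. Tbc1d10c read 9.58, 9.82 and 9.33 in TG tamoxifen and 12.21, 11.92 and 11.90 in TG vehicle, a fall by 2.43 ± 0.19 (adjusted p = 0.000384), and it was among the 5 genes past the threshold with the beta-actin ratio as a term (-2.43, adjusted p = 0.0303), together with Ccl12 (4.65, adjusted p = 0.0420) and Mccc1 (-1.58, adjusted p = 0.0440).

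Lists differed in how many of their genes were called. The share higher exceeded that of all genes in lists of noncoding RNA, ribosome building, splicing, cytoskeleton and protein turnover, and the share lower was largest, outside fat oxidation, for branched-chain amino acid breakdown, complex I, the muscle ubiquitin ligases and the sarcomere. Counts of list members are read against 10.4% higher and 14.4% lower, and list medians against -0.07, the median change of all genes tested (0.03 with median centring). List counts without the arrays with conflicting labels are read against the calls of that fit, 248 higher and 494 lower of 11147 genes.

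**Figure D3:**
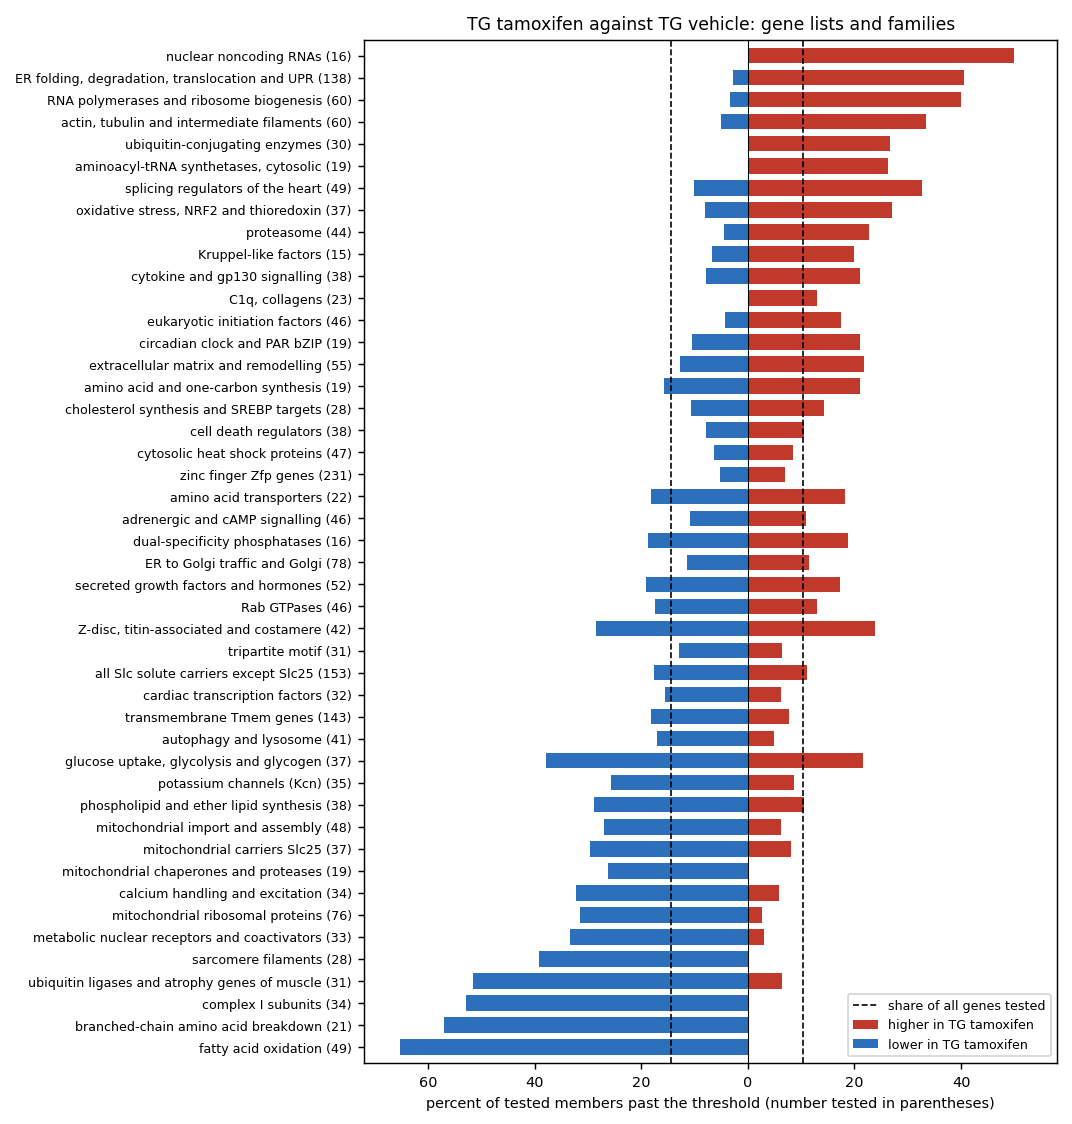
Percent of the tested members of each list or gene family that were higher (red, right) or lower (blue, left) in TG tamoxifen than in TG vehicle at an adjusted p under 0.05, with the number tested in parentheses. Dashed lines mark the shares of all genes tested, 10.4% higher and 14.4% lower; nuclear noncoding RNAs reach 8 of 16 higher and branched-chain amino acid breakdown 57.1% lower.

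Part of the genes of RNA machinery was higher. Of 60 genes of the RNA polymerases and of ribosome biogenesis 24 rose (40.0%) and 2 fell, with a median of 0.51; without the arrays with conflicting labels 5 rose and 0 fell, at a median of 0.57. Ddx10, an RNA helicase of the nucleolus, read 12.18, 11.98 and 12.24 in TG tamoxifen and 10.47, 10.53 and 9.91 in TG vehicle (1.83 ± 0.20, adjusted p = 0.00113). Npm1, the abundant nucleolar protein nucleophosmin, rose by 1.18 ± 0.18 with treated arrays at 15.83, 15.76 and 15.76. Both groups were narrow for Nhp2, of the snoRNA particles that modify ribosomal RNA, at 14.91, 14.89 and 14.71 in TG tamoxifen and 12.88, 13.06 and 12.86 in TG vehicle. Tsr1, of the small subunit, rose by 1.56 ± 0.23, Gnl3 (nucleostemin) by 1.57 ± 0.30 and Nop58 by 2.28 ± 0.42. The members that fell were Polr1a, the large subunit of RNA polymerase I (-1.01 ± 0.21), and Maf1, a repressor of RNA polymerase III (-0.71 ± 0.17). Among 46 translation initiation factors 8 rose and 2 fell; besides Eif1a these included Eif4a1 (1.34 ± 0.25), Eif5 (1.23 ± 0.21) and Eif1ax (0.87 ± 0.14), with Eif2b4 (-1.03 ± 0.20) and Eif3k (-0.52 ± 0.17) lower.

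Of the noncoding RNAs of the nucleus, 8 of 16 tested were higher and 0 lower, with a median of 0.87; without the arrays with conflicting labels 2 passed, at a median of 0.69. The snoRNA host genes Snhg1, Snhg5, Snhg12, Snhg4 and Gas5, whose introns hold small RNAs that guide ribosomal RNA modification, were all among them. Snhg1 read 13.59, 13.20 and 13.22 in TG tamoxifen and 11.79, 11.23 and 11.19 in TG vehicle (1.94 ± 0.30, adjusted p = 0.00235), and Gas5 read 14.37, 13.69 and 13.95 in TG tamoxifen and 13.42, 12.45 and 12.35 in TG vehicle (1.26 ± 0.33, adjusted p = 0.0182). Malat1, an abundant RNA of nuclear speckles, read 16.18, 16.35 and 16.08 in TG tamoxifen and 15.20, 14.71 and 13.35 in TG vehicle, with TG vehicle 3 lowest (1.78 ± 0.46, adjusted p = 0.0172). In NTG hearts the median change of the list on tamoxifen was below 0, at -1.03 (-1.14 without NTG tamoxifen 1). Malat1 read 15.86, 16.55 and 16.88 in NTG vehicle, around the TG tamoxifen levels, and 14.39, 15.06 and 13.70 in NTG tamoxifen, where every array was lower. All 8 also passed the test of the difference between the TG and the NTG changes, with and without NTG tamoxifen 1. The beta-actin ratio also differed between the NTG groups, in the other direction from TG: it was 1.91, 1.97 and 1.78 in NTG tamoxifen and 2.12, 2.43 and 2.27 in NTG vehicle. With that ratio as a term 0 of these RNAs passed in TG hearts, at a median of 0.46, and 0 genes passed for the difference between TG and NTG; the part of RNA quality was not tested otherwise.

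In the list of splicing factors and heart splicing regulators, 16 of 49 rose (32.7%, beside 10.4% of all genes) and 5 fell. The share lower, 10.2%, was below the 14.4% of all genes. The median was 0.43, and without the arrays with conflicting labels 3 rose and 2 fell. The rises were mostly general factors such as Hnrnpf, at 14.99, 14.78 and 14.93 in TG tamoxifen and 13.34, 13.58 and 13.83 in TG vehicle (1.32 ± 0.16, adjusted p = 0.00168), Srsf10 (1.11 ± 0.17), Hnrnpm (1.09 ± 0.22) and Hnrnpd (0.90 ± 0.16, whose probe set may match several transcripts and whose other probe sets gave -0.58 without it). The 5 falls were Rbm20, which splices titin (-1.03 ± 0.25), Rbfox1 (-1.71 ± 0.46), the muscle kinase of splicing factors Srpk3 (-1.21 ± 0.38), Rbm38 (-1.30 ± 0.26) and Dmpk, the kinase gene of myotonic dystrophy (-1.06 ± 0.22). Rbfox1 read 10.81, 10.69 and 11.47 in TG tamoxifen and 13.04, 12.47 and 12.59 in TG vehicle, and the groups did not overlap.

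Genes that charge transfer RNAs and make amino acids rose in part. Of 19 cytosolic tRNA synthetases 5 rose and 0 fell, and 17 of the 19 changes were above 0 (median 0.59); Tars (1.33 ± 0.25, adjusted p = 0.0044) and Gars (0.96 ± 0.31, adjusted p = 0.0403) were examples. Of the synthetases 0 passed without the arrays with conflicting labels, at a median of 0.44. Eprs had treated arrays at 13.66, 13.63 and 13.62 and vehicle arrays at 12.88, 12.90 and 12.78, a small but even difference. In amino acid and one-carbon synthesis 4 of 19 rose (Mthfd2, Psat1, Asns and Aldh18a1) and 3 fell, namely Got2 (-0.94 ± 0.17) and Gpt2 (-0.74 ± 0.20), the mitochondrial transaminases, and Glul, glutamine synthetase (-1.40 ± 0.33).

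Some chemokine genes and some genes of gp130 signalling, through which interleukin-6 type cytokines act, rose. Ccl12 read 13.27, 13.05 and 13.18 in TG tamoxifen and 8.57, 10.39 and 9.61 in TG vehicle (3.64 ± 0.48, 12.5-fold, adjusted p = 0.00172). The related monocyte attractants Ccl7 and Ccl2 rose by 3.41 ± 0.60 and 4.27 ± 0.90, and Ccr2, the receptor of Ccl2, by 2.69 ± 0.48 (adjusted p = 0.00384). Socs3, the feedback inhibitor of gp130, read 15.37, 14.70 and 15.12 in TG tamoxifen and 11.61, 12.23 and 12.30 in TG vehicle (3.02 ± 0.41, adjusted p = 0.00174); Osmr, the oncostatin M receptor, rose by 1.43 ± 0.24, Stat3 by 1.18 ± 0.25 and the acute phase gene Saa3 by 2.42 ± 0.43. Stat5b fell by 0.79 ± 0.20, Stat5a by 1.36 ± 0.36 and Cish, a STAT5 target, by 0.99 ± 0.27, and Ctf1, the gp130 ligand cardiotrophin 1, read 10.63, 10.49 and 10.20 in TG tamoxifen and 12.24, 12.50 and 11.88 in TG vehicle, a fall by 1.77 ± 0.24. Over the list, which does not hold Ccl12, Ccr2 or Ctf1, 8 of 38 rose and 3 fell (median 0.32; 3 and 0 without the arrays with conflicting labels). Of 17 macrophage and monocyte markers 4 were higher (Ptprc, Ccr2, Aif1 and Mrc1), 0 lower and 13 not called, with 11 changes above 0. The list median per array, relative to the TG vehicle mean, was 0.12 to 0.73 in TG tamoxifen and -0.54 to 0.30 in TG vehicle. Their summed intensity was 233375 to 346871 in TG tamoxifen and 126571 to 242045 in TG vehicle. Both pairs of ranges overlap, and Itgam was below the filter. The part of these cells in the result was not tested. Of the neutrophil and lymphocyte markers 2 each could be tested, and Ighm, lower, was the only call; 8 of the 10 lymphocyte genes with a probe set, Cd3e and Cd79a among them, were below the filter.

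Growth factors and matrix genes changed in both directions. Ptx3, a soluble pattern recognition protein, read 13.43, 12.59 and 13.10 in TG tamoxifen and 6.79, 8.45 and 7.92 in TG vehicle (5.32 ± 0.63, adjusted p = 0.00159); it passed the filter only through the TG tamoxifen arrays and was not tested without NTG tamoxifen 1. Il33, an alarm cytokine, rose by 1.58 ± 0.26, Tgfb2 by 1.05 ± 0.19 and Fst, the activin antagonist follistatin, by 1.69 ± 0.41, while Igf2 fell by 1.22 ± 0.22; over the list of secreted factors 9 of 52 rose and 10 fell. Of 55 matrix and remodelling genes 12 rose and 7 fell. Vcan, the proteoglycan versican, read 12.32, 12.29 and 12.14 in TG tamoxifen and 9.75, 10.04 and 10.44 in TG vehicle (2.17 ± 0.23, adjusted p = 0.00113), and Cd44, the hyaluronan receptor, rose by 2.59 ± 0.39 (adjusted p = 0.00207). The protease inhibitors divided, with Timp1 higher (2.76 ± 0.54), at 14.25, 13.89 and 13.48 in TG tamoxifen and 10.16, 11.46 and 11.71 in TG vehicle, and Timp4, the form typical of heart, lower (-1.54 ± 0.38), at 11.78, 11.35 and 11.52 in TG tamoxifen and 12.32, 13.11 and 13.84 in TG vehicle. The fibroblast genes Mmp2 (-1.35 ± 0.30) and Dcn (-0.64 ± 0.21) fell as well; of 12 fibroblast markers 4 were lower and 1 (Col3a1, 0.95 ± 0.28) higher, with a summed intensity of 316891 to 331198 in TG tamoxifen and 396408 to 503018 in TG vehicle. Of 12 endothelial markers 5 were lower and 0 higher, at 59209 to 64283 against 73906 to 99822. The part of these cell types in the matrix changes was not tested.

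Of 60 genes of actin, tubulin and intermediate filaments 20 rose and 3 fell, with a median of 0.46 (7 and 0, median 0.44, without the arrays with conflicting labels). S100a4, a calcium-binding partner of nonmuscle myosin, read 13.99, 13.51 and 13.46 in TG tamoxifen and 11.07, 11.35 and 11.41 in TG vehicle (2.37 ± 0.23, adjusted p = 0.0011). The tubulin Tubb4b read 16.75, 16.60 and 16.46 in TG tamoxifen and 14.78, 14.90 and 14.35 in TG vehicle (1.92 ± 0.28), and Tubb2b rose by 1.54 ± 0.26, Arpc5 of the actin-branching complex by 1.10 ± 0.19 and the nonmuscle tropomyosin Tpm4 by 0.92 ± 0.17. Tubg1, Tuba8 and Actg2 were the 3 members lower. Of 28 sarcomere filament genes 0 rose and 11 fell, with a median of -0.51 (4 fell, median -0.44, without the arrays with conflicting labels). Mylk4, a myosin light chain kinase, read 11.40, 11.38 and 11.61 in TG tamoxifen and 14.01, 13.82 and 13.40 in TG vehicle, a fall by 2.28 ± 0.33. Mybpc3, Myom1 and the thin filament gene Tnnc1 fell by 1.03 ± 0.16, 1.09 ± 0.24 and 0.59 ± 0.16. Mybpc2, the fast muscle form of the myosin-binding protein, fell by 3.75 ± 0.72, though its treated arrays read 9.62, 6.65 and 6.13, so the size of its fall rests on TG tamoxifen 2 and 3. Of the skeletal muscle markers Ckm and Acta1 could be tested, with Ckm lower, and the other 6, Myh4 and Mylpf among them, were below the filter. Of 12 cardiomyocyte markers 3 were lower, Ckm, Tnnc1 and Ryr2, and their summed intensity was 2844950 to 3004200 in TG tamoxifen and 3301290 to 3433090 in TG vehicle.

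At the Z-disc, where sarcomeres join, and the costamere, which ties them to the membrane, 10 of 42 rose and 12 fell. Fhl1, a stretch-sensing LIM protein, read 17.96, 17.93 and 17.84 in TG tamoxifen and 15.72, 15.60 and 15.84 in TG vehicle (2.19 ± 0.36, adjusted p = 0.00281), and Synpo2l, Flnc (filamin C) and Ankrd1, a stress-induced titin partner, rose by 1.72 ± 0.37, 1.29 ± 0.37 and 1.24 ± 0.40. Sgca, alpha-sarcoglycan, read 11.96, 11.94 and 11.99 in TG tamoxifen and 14.05, 14.45 and 14.08 in TG vehicle (4.7-fold lower, adjusted p = 0.00159), and Itgb1bp2, the integrin chaperone melusin, read 12.96, 13.16 and 13.33 in TG tamoxifen and 15.25, 15.36 and 15.31 in TG vehicle, a fall by 2.16 ± 0.30. Tcap and Myot fell by 2.08 ± 0.39 and 1.74 ± 0.32. The sarcoglycans thus did not move as one, since Sgcd, delta-sarcoglycan, rose by 0.91 ± 0.27 (adjusted p = 0.0302).

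Of 31 ubiquitin ligases and atrophy genes of muscle 16 fell, 6 of them of the Asb family, whose ankyrin and SOCS box proteins choose targets for degradation, and 2 rose (Fbxo30, 1.20 ± 0.22, and Mdm2, 0.67 ± 0.21), with a median of -0.65; without the arrays with conflicting labels 5 fell, at a median of -0.75. Asb14 read 11.18, 11.28 and 11.88 in TG tamoxifen and 14.24, 13.76 and 13.90 in TG vehicle (5.74-fold lower, adjusted p = 0.00159). Asb2, which targets filamins, read 13.45, 13.62 and 13.96 in TG tamoxifen and 15.78, 16.02 and 15.62 in TG vehicle, a fall by 2.13 ± 0.27. Asb10, Asb15 and Asb11 fell by 3.14 ± 0.50, 2.04 ± 0.29 and 1.51 ± 0.19; the treated arrays lay below the vehicle arrays for each of these. In the lists of general degradation machinery, 10 of 44 proteasome genes rose and 2 fell, and 8 of 30 ubiquitin-conjugating enzymes rose and 0 fell, although the medians of these lists were 0.10 and 0.08. Psma5, of the core particle, read 16.39, 16.15 and 16.33 in TG tamoxifen and 14.82, 14.67 and 14.72 in TG vehicle (1.55 ± 0.20, adjusted p = 0.00172), and Psmd14, the deubiquitinase of the lid, rose by 1.49 ± 0.26, while the assembly factor Psmg1 and the activator Psme1 fell by 0.91 ± 0.19 and 1.25 ± 0.33.

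Ion channels and calcium genes were lower more often than higher. Of 35 potassium channel genes 9 fell and 3 rose (median -0.34; 3 and 0 without the arrays with conflicting labels). Kcnip2, the partner of the channels that carry the transient outward current, read 11.78, 12.15 and 11.95 in TG tamoxifen and 13.93, 14.23 and 13.73 in TG vehicle, and Kcnd2, which carries that current, fell by 1.17 ± 0.24. Kcnv2, a silent subunit, read 9.29, 9.06 and 9.38 in TG tamoxifen and 11.91, 11.78 and 11.60 in TG vehicle (5.74-fold lower, adjusted p = 0.00174). Kcna4, the slow form of the transient outward channel, rose by 1.28 ± 0.25, as did Kcnj5, of the acetylcholine-gated channel (1.16 ± 0.33), and Kcne4 (1.03 ± 0.28). In the list of calcium handling and excitation 11 of 34 fell and 2 rose (median -0.42). S100a1, which enhances calcium cycling, fell by 1.05 ± 0.14, with arrays at 15.50, 15.61 and 15.52 in TG tamoxifen and 16.51, 16.74 and 16.51 in TG vehicle; Hrc, the histidine-rich calcium-binding protein of the sarcoplasmic reticulum, fell by 1.16 ± 0.17 and the sodium channel subunit Scn4b by 1.60 ± 0.27. Atp2b1, the plasma membrane calcium pump, and Atp1b1, of the sodium pump, rose by 1.10 ± 0.24 and 0.52 ± 0.15.

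**Figure D4:**
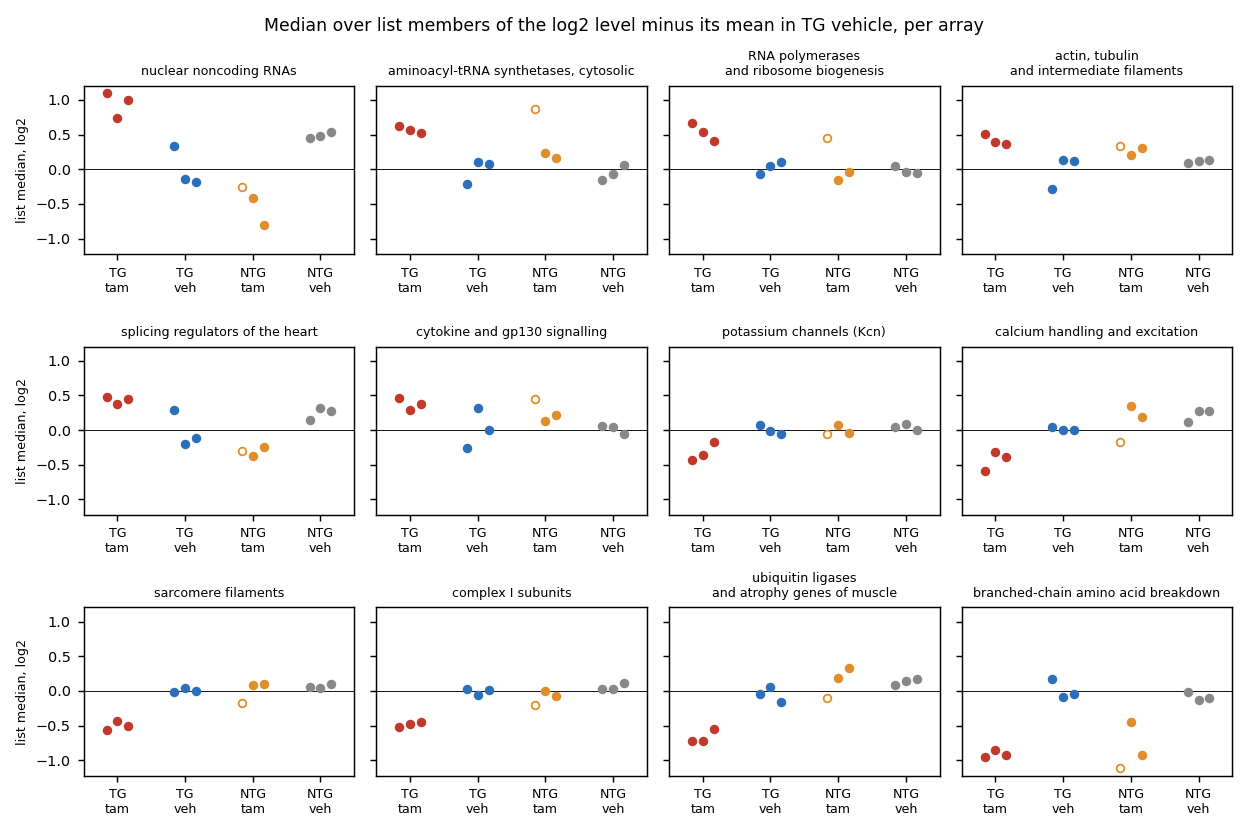
For 12 lists, the median over members of the log2 level minus the member's mean in TG vehicle, on each of the 12 arrays; the open circle is the array labelled NTG tamoxifen 1. The TG tamoxifen arrays stand apart from TG vehicle in each panel except cytokine and gp130 signalling, where they overlap, the noncoding RNAs fall on tamoxifen in NTG hearts, and branched-chain amino acid breakdown is low on NTG tamoxifen arrays too.

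Some regulators of cardiac metabolism fell. Klf15, a transcription factor that drives branched-chain amino acid and fat use in the heart, read 9.03, 8.28 and 8.32 in TG tamoxifen and 12.46, 12.10 and 11.50 in TG vehicle (11.1-fold lower, adjusted p = 0.00159), while Klf6, Klf7 and Klf10 of the same family rose by 0.96 ± 0.20, 1.12 ± 0.19 and 1.40 ± 0.41 (Klf10 was not called without TG vehicle 1, at 0.91). Of 33 metabolic nuclear receptors and coactivators 11 fell and 1 rose (Pprc1, 0.59 ± 0.18), with a median of -0.47; 4 fell without the arrays with conflicting labels. Rxrg, a retinoid X receptor, read 10.89, 11.15 and 11.33 in TG tamoxifen and 13.16, 13.28 and 13.25 in TG vehicle, Perm1, a muscle coregulator, fell by 1.88 ± 0.25 and Ppara by 1.66 ± 0.26. Of 32 cardiac transcription factors 2 rose and 5 fell (15.6%, beside 14.4% of all genes). Transcription factors that fell included Hopx (-1.27 ± 0.20), Gata6 (-0.98 ± 0.21), Irx4 (-1.52 ± 0.34), Mef2d (-1.03 ± 0.24) and Foxo3 (-1.24 ± 0.29; another probe set, with the highest mean without NTG vehicle 1, gave -0.50, not called). Of 19 genes of the clock list 4 rose, 2 fell and 13 were not called. Per1 rose by 1.18 ± 0.23 and Nfil3 by 1.28 ± 0.32, whereas Tef fell by 1.12 ± 0.25 and Per2 by 1.25 ± 0.39. The labels do not state the hour at which hearts were taken.

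Branched-chain amino acid breakdown had 12 of 21 genes lower (57.1%) and 0 higher, with a median of -0.94 (9 lower and a median of -1.02 without the arrays with conflicting labels). Bckdha and Bckdhb, the subunits of the rate-setting dehydrogenase, read 12.22, 12.23 and 11.97 and 12.54, 12.73 and 12.61 in TG tamoxifen against 14.26, 14.47 and 13.82 and 13.90, 14.09 and 13.94 in TG vehicle, falls by 2.04 ± 0.29 and 1.35 ± 0.17. Mcee and Mccc1, of the later steps, fell by 1.41 ± 0.20 and 1.21 ± 0.18. The list was also low in NTG hearts on tamoxifen, with a median change of -0.90 (-0.80 without NTG tamoxifen 1), and 3 of the 12 falls passed the test of the difference between TG and NTG (5 without NTG tamoxifen 1). Klf15 is itself a member of the list.

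Part of other mitochondrial groups was lower. Among 34 complex I subunits 18 were lower and 0 higher, with a median of -0.50 (5 lower, median -0.45, without the arrays with conflicting labels). Ndufs8 read 16.28, 16.45 and 16.22 in TG tamoxifen and 17.80, 17.59 and 17.67 in TG vehicle (2.59-fold lower, adjusted p = 0.00159). Of 76 mitochondrial ribosomal proteins 24 fell and 2 (Mrpl47 and Mrps18b) rose. Mrps35 fell by 1.14 ± 0.17, and Polrmt and Mterf2, which transcribe mitochondrial DNA, by 1.26 ± 0.24 and 1.85 ± 0.36. Coq9, needed to make coenzyme Q, read 13.96, 14.03 and 14.14 in TG tamoxifen and 15.82, 16.06 and 15.85 in TG vehicle (3.65-fold lower, adjusted p = 0.00161). In the import list the receptors Tomm70a and Tomm20 of the outer membrane rose by 0.95 ± 0.21 and 0.45 ± 0.15, against 13 of 48 members that fell. The Slc25 carriers had 11 lower, among them Slc25a11, the oxoglutarate carrier, by 1.40 ± 0.17, and 3 higher, with Slc25a32, a folate carrier, by 1.58 ± 0.38.

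Forms of the same glucose protein changed in opposite directions. Of 37 tested 14 fell and 8 rose. The insulin-sensitive transporter Slc2a4 (GLUT4) read 14.25, 14.27 and 14.40 in TG tamoxifen and 15.57, 15.88 and 15.43 in TG vehicle, a fall by 1.32 ± 0.17, while Slc2a1 (GLUT1), the form of fetal and stressed hearts, rose by 1.10 ± 0.35 (adjusted p = 0.0389). The muscle phosphofructokinase Pfkm read 14.21, 14.32 and 14.32 in TG tamoxifen and 16.46, 16.57 and 16.05 in TG vehicle (4.22-fold lower), and the platelet form Pfkp read 13.76, 14.00 and 13.51 in TG tamoxifen and 12.19, 12.11 and 12.71 in TG vehicle (2.67-fold higher). These are probe sets of different genes, so their levels do not tell which form was more abundant. Pygm, muscle glycogen phosphorylase, and Ldhb fell by 1.61 ± 0.27 and 1.73 ± 0.22, and Pfkfb3, Hk2 and Pgk1 rose by 1.10 ± 0.21, 0.64 ± 0.21 and 1.04 ± 0.31. Ppp1r3d, which brings phosphatase to glycogen, rose by 1.90 ± 0.42.

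Lipid synthesis and redox genes were mixed. In the phospholipid and ether lipid list 4 of 38 rose and 11 fell: beside Far1 and Sptlc2 the rises were Selenoi, which completes phosphatidylethanolamine (1.81 ± 0.31), and Chka, choline kinase (2.13 ± 0.46), while Gnpat, the peroxisomal enzyme that begins ether lipid synthesis, was among those lower. Hmgcs1, of sterol synthesis, rose by 2.38 ± 0.45, with Idi1, Ebp and Msmo1, against falls of Srebf1, Scd1 and Acacb. In the NRF2 and thioredoxin list 10 of 37 rose and 3 fell. Both subunits of the enzyme that starts glutathione synthesis rose, Gclc by 1.26 ± 0.22 (0.81 with the probe set of highest mean without NTG tamoxifen 2 or any 1 of the NTG vehicle arrays, the call being lost without NTG vehicle 1 or 2) and Gclm by 2.15 ± 0.51, with thioredoxin reductase Txnrd1 (1.89 ± 0.33), thioredoxin Txn1 (0.85 ± 0.17) and the heme oxygenase Hmox1 (2.52 ± 0.77); Prdx2, Prdx3 and Sod3 were lower. Gclm read 9.64, 11.97 and 10.68 in TG vehicle, a spread of more than 2 units. Cytosolic heat shock proteins had few calls, 4 of 47 higher and 3 lower, and among them Fkbp4, the steroid receptor co-chaperone, fell by 1.73 ± 0.25. ER to Golgi traffic had 9 higher and 9 lower of 78, with a median of -0.01, and zinc finger genes 16 and 12 of 231, below the shares of all genes in both directions.

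Probe sets of the same gene did not always read alike. With each of 19277 probe sets tested on its own, 3899 passed (20.2%). Of 4903 genes with at least 2 probe sets above the filter, 181 had every one higher and 225 every one lower, while 679 and 619 had some that passed and others that did not. In 11 genes probe sets passed in opposite directions, among them Anapc15, a subunit of the mitotic ubiquitin ligase, with 0.81 ± 0.18 and -1.09 ± 0.23, Yy1, an ATF6 partner (0.73 ± 0.15 and -1.02 ± 0.21), and the RNA-binding protein gene Msi2, whose probe set used here read -0.12 ± 0.38 (adjusted p = 0.849) and others 0.81 ± 0.21 and -0.73 ± 0.22.

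The NTG littermates were used to read the drug without the fusion, although the array labelled NTG tamoxifen 1 had an Esr1 level in the TG range. In NTG hearts 488 genes passed (4.37%) between tamoxifen and vehicle, or 421 (3.77%) without that array. With all arrays, 76 of the 11165 genes tested were higher there (0.681%) and 412 lower (3.69%). The overlap counts that follow are read against these shares. The overlaps were counted only with that array included: of the 1166 genes that rose in TG hearts 13 also rose in NTG hearts and 62 fell, and of the 1608 that fell 65 also fell and 4 rose. The difference between the TG and NTG changes passed for 1593 genes (14.3%), or 2554 (22.9%) without the array labelled NTG tamoxifen 1; it passed in the direction of the TG change for 479 of the genes that rose and 622 of those that fell, or 747 and 933 without that array. Of the 40 leading rises 19 passed this test, or 33 of 37 tested without that array, and of the 40 leading falls 21, or 36 of 40. Genes called or leading in TG hearts were chosen by their TG change, which is part of this difference. They therefore pass more readily, and these shares are no independent evidence. The NTG changes of the leading rises had a median of 0.58 with that array and -0.20 without it. Tmem42 was at -2.49 in TG and -2.70 in NTG hearts, and Smim27 at -2.75 and -1.86; neither difference passed (adjusted p = 0.904 and 0.512). Timp1 rose by 2.76 ± 0.54 in TG hearts and read 1.76 in NTG hearts, and the difference did not pass (adjusted p = 0.388; 0.0811 without that array).

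**Figure D5:**
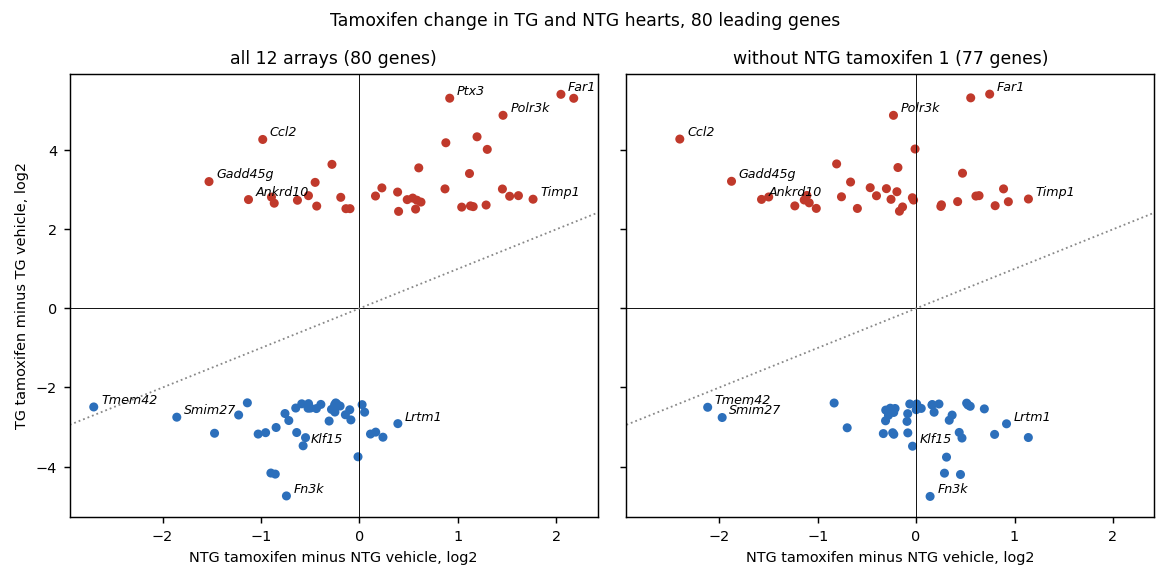
Log2 change on tamoxifen in TG hearts against that in NTG hearts for the 80 leading genes, with all arrays (left) and without the array labelled NTG tamoxifen 1 (right, 77 genes tested); the dotted line marks equal changes. Tmem42 and Smim27 lie near the line in both panels, and Ccl2 and Gadd45g rise in TG but lie below 0 in NTG hearts.

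Counts within lists moved with single arrays, while the medians kept their sign in the lists named next. Over the alternatives tried, medians ran from 0.40 to 0.66 for RNA polymerases and ribosome biogenesis, 0.42 to 1.17 for nuclear noncoding RNAs, 0.22 to 0.61 for the cytoskeleton, -0.63 to -0.32 for the sarcomere, -0.76 to -0.49 for the muscle ubiquitin ligases, -0.63 to -0.35 for complex I and -1.10 to -0.79 for branched-chain amino acid breakdown. With the beta-actin ratio as a term, 0 members of these 7 lists passed except for 1 lower member of the last. Calls over all genes moved too, with 528 to 1206 higher and 938 to 1631 lower when 1 TG array was left out. Single TG arrays moved the list counts by more than 1.5 times as follows. RNA polymerases and ribosome biogenesis had 14 rises in place of 24 without TG tamoxifen 1 and 15 without TG tamoxifen 2, and the cytoskeleton 10 and 11 in place of 20. The median of the cytoskeleton was 0.22 without TG vehicle 1. The tRNA synthetases had 2 rises in place of 5 without TG tamoxifen 1 and 3 without TG tamoxifen 3 or TG vehicle 1; without TG vehicle 1 their median was 0.36 in place of 0.59. Nuclear noncoding RNAs had 4 rises in place of 8 without TG tamoxifen 1, 4 without TG vehicle 2 and 5 without TG vehicle 3. Splicing regulators had 9 in place of 16 without TG tamoxifen 1, and 8 without TG tamoxifen 2, TG tamoxifen 3, TG vehicle 2 or TG vehicle 3. Sarcomere filaments had 5 falls in place of 11 without TG tamoxifen 1 and 6 without TG tamoxifen 2 or TG vehicle 3. Metabolic receptors and coactivators had 5 in place of 11 without TG tamoxifen 1 or TG vehicle 2, 6 without TG tamoxifen 2 or TG tamoxifen 3 and 7 without TG vehicle 3. The muscle ubiquitin ligases had 9 in place of 16 without TG tamoxifen 1 and 10 without TG vehicle 2, and complex I 11 in place of 18 without TG tamoxifen 1 or TG tamoxifen 2. Mitochondrial ribosomal proteins had 15 in place of 24 without TG tamoxifen 1, and potassium channels 5 in place of 9 without TG vehicle 2.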

How the data were processed

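RNA from the left ventricle of each of 12 mice was read on an Affymetrix mouse expression array. The deposited values are linear intensities that the authors had scaled to the same trimmed mean on every array; which summary method they used is not given in the sources used here. An offset of 16 was added, log2 was taken and the 12 arrays were quantile normalized. Each gene was represented by its probe set of highest mean, from the platform annotation, and genes under the 50th percentile of intensity were left out. Groups came from the titles. Group means of all 4 groups were fitted together in limma 3.58.1 (R 4.3.3), with Benjamini-Hochberg adjustment over all genes and a threshold of 0.05; tables and promoters were handled in Python 3.11.15. Errors are standard errors. Nothing in the sources says more of the replicates than that each is a separate heart, and 3 arrays a group limit the precision. On simulated data with 11165 genes, 100 genes were changed by 1 on the log2 scale and 100 by 2. The fit recovered 44% and 88% of these, and 9 of its 141 calls were unchanged genes. In the real data 24.8% of the genes were called, a far larger share, so these rates may not carry over. Genes named are the 40 largest rises and 40 largest falls past the threshold, outside the ER, fatty acid oxidation and Rcan lists, whose groups do not overlap, then the largest changes within each list; other names were chosen after their values were seen. The members and lists were chosen with earlier results of these data known. Replicate numbers were not used to pair the samples in the main fit, and whether they mark pairs is not known. Alternatives changed the scaling, filter, probe sets, model terms and arrays used.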

Additional observations from a re-analysis of the deposited data

Results flagged for a closer look

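The tamoxifen change in TG hearts differed from that in NTG hearts, by a test of the difference in limma, for 1593 genes, and for 2554 without the array labelled NTG tamoxifen 1. The leading genes were chosen by their TG change, which is part of this difference. Among them, the TG change exceeded the NTG change on the log2 scale by 5.26 for Ccl2, 4.74 for Gadd45g, 4.40 for Ptx3, 3.92 for Ccl12, 3.88 for Ankrd10, 3.71 for Dancr, 3.64 for Arid4a and 3.53 for Ing2. Of these, Ccl2, Ptx3 and Dancr would lie below the filter without the TG tamoxifen arrays. With the array labelled NTG tamoxifen 1 left out, Ptx3 was not tested and the others ran from 3.58 (Dancr) to 6.68 (Ccl2). With all arrays the difference was -4.00 for Fn3k and -3.74 for Mybpc2. Among nuclear noncoding RNAs it was 5.61 for Neat1, 3.83 for Malat1, 3.72 for Snhg1, 3.57 for Snhg5, 3.36 for Snhg4, 2.57 for Gas5, 1.78 for Snhg12 and 1.55 for Mir22hg. In these RNAs the TG hearts had rises and the NTG hearts changes below 0.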

How the results depend on the processing

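The count of genes called between TG tamoxifen and TG vehicle kept within 1.5 times of 2774 under most changes of scaling and filter. With no filter on dim genes 1604 were called, 653 higher and 951 lower, and the difference between TG and NTG was called for 361. The mean of a gene's probe sets gave 1045 for that difference, array weights gave 2681, and testing each probe set gave 1807 higher. Without the arrays with conflicting labels, TG vehicle 3 and TG tamoxifen 1, 742 were called, 248 higher and 494 lower, with 57 for the difference. With TG vehicle 3 grouped as TG tamoxifen, limma called 0, 0 higher and 0 lower, and 0 for the difference (2280 and 1988 at an unadjusted p under 0.05). With the beta-actin ratio as a term it called 5, 2 higher and 3 lower, and 0 for the difference (2511 and 812 unadjusted). Leaving out 1 array at a time gave 1466 to 3263 called, 528 to 1434 higher, 938 to 1829 lower, 644 to 2554 for the difference, and a beta-actin difference of 0.217 to 0.395. Apart from the smaller number of arrays or genes in some fits, the cause was not tested. Of 306 named genes 304 were called, and 4 of these changed sign: Anapc15 (-0.062) and Yy1 (-0.088) with the mean of probe sets, Hnrnpd (-0.58) without probe sets that may match several transcripts, and Synm (-0.045) on the TG arrays alone. Msi2, which was not called, ran from -0.51 to 0.093. Over 8453 values of named genes under the alternatives, 7142 kept the call, 1305 lost it and 2 gained it. Direction was required to stay the same only for genes called in the main fit.

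Same-numbered arrays of the TG groups deviated from their group means with correlations of -0.05, 0.02 and 0.005. With 3 arrays a group these values cannot decide whether the numbers mark pairs. With the replicate block 2465 genes were called, 1033 higher and 1432 lower, and 1327 for the difference.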
